A study of Mus musculus and Mus musculus musculus x Mus musculus castaneus with 52 samples.

Results

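Esrrb, Tfcp2l1, Tbx3, Nr5a2 and Gbx2, 5 transcription factors of naive mouse pluripotent cells, were followed through every RNA library of the series. They were chosen by gene symbol, as factors tied to LIF and Wnt input, and all 5 were found among the 16687 genes of the table. The study compared X chromosome dosage in mouse pluripotent stem cells, and its RNA table has 24 libraries. Values are log2 CPM, reads scaled to the size of each library on a log2 scale, in which a difference of 1 is a doubling.

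The induced pluripotent stem cells (iPSCs, somatic cells reprogrammed to pluripotency) were Mus musculus lines labelled wild type. Of these, 3 lines were female (LV20, LV21 and LV22) and 3 were male (LV4, LV8 and LV16), each read at passage 7 (P7) and at passage 13 (P13), where the series names the female lines XO. The CM embryonic stem cell (ESC) lines, from a cross of musculus with castaneus, were read at passage 5, with CM1 and CM2 as wild-type XX lines and CM3 and CM7 as wild-type XY lines. The labels give no culture conditions for the RNA of the iPSC and CM lines, and name male feeder cells for chromatin samples of such lines. A further ESC experiment took LIF away for 24 h. It held the wild-type XX line F121 and 2 XX lines labelled Dusp9+/- (all 3 from the same kind of cross) and the wild-type XY line V6.5 (Mus musculus), cultured in serum without feeder cells, each at 0 h and 24 h. Each line is 1 culture per time, and the Dusp9+/- genotype rests on 2 lines. Dusp9 is an X-linked phosphatase that acts on ERK. Sex and strain cannot be told apart between F121 and V6.5, and strain, origin and passage cannot be told apart between iPSC and CM lines.

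LIF is the cytokine that keeps mouse pluripotent cells undifferentiated in serum. It signals through gp130 and Jak kinases to Stat3, which raises naive factors such as Klf4, Tfcp2l1 and Gbx2, while Tbx3 is fed mainly by PI3K. Wnt signalling stabilises beta-catenin, which relieves repression by Tcf7l1 at genes such as Esrrb, Tfcp2l1 and Nr5a2. ERK signalling works in the opposite direction and prepares cells to leave the naive state.

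Esrrb, an orphan nuclear receptor, lies at chr12:86361117-86521628 (GRCm38.p6). Tfcp2l1, a grainyhead-like factor, lies at chr1:118627923-118685168, Tbx3, a T-box factor, at chr5:119670534-119684724, Nr5a2, an orphan nuclear receptor also called Lrh-1, at chr1:136842562-136960448, and the homeobox factor Gbx2 at chr1:89927962-89931176. The RefSeq promoter table (GRCm38.p6, 250 bases before to 50 bases after a start) matched 4 of the 5 members with 6 windows. Windows are shown because input from LIF through Stat3 and from Wnt through Tcf factors is what groups these genes. They were searched on both strands for the Stat motif TTCNNNGAA, for the Tcf motifs CTTTGA and CTTTGT, and for the orphan receptor half-site AAGGTCA, which is contained in the longer form TCAAGGTCA. Capitals mark a match.
Esrrb window at chr12:86360867-86361166, plus strand: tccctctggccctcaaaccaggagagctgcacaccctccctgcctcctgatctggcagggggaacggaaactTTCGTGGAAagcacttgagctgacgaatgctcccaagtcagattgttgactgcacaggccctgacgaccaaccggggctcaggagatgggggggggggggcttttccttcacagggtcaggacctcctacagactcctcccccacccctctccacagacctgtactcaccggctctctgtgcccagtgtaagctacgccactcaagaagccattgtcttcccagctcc
Tfcp2l1 window at chr1:118627695-118627994, plus strand: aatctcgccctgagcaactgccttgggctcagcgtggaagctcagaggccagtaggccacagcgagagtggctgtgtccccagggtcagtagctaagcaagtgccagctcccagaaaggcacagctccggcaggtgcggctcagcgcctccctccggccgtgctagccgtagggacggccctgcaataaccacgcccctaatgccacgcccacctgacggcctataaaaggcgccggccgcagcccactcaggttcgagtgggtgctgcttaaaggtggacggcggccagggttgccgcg
Nr5a2 window at chr1:136953581-136953880, minus strand: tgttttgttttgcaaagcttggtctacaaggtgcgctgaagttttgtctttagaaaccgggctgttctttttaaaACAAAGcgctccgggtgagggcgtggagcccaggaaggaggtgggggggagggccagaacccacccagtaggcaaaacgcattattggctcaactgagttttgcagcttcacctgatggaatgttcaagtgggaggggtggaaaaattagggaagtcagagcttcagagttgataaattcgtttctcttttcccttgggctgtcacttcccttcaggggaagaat
Gbx2 window at chr1:89931127-89931426, minus strand: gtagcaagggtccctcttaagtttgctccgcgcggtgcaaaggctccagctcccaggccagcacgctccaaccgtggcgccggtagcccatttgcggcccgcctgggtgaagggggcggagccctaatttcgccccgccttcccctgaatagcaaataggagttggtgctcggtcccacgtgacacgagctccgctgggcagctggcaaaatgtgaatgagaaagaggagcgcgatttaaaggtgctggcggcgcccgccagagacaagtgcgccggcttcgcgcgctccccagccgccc

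The Esrrb window at chr12:86360867-86361166 held the only Stat match of the 6 windows, 178 bases before the start. This motif was found in 8.30% of all 32851 windows. The Nr5a2 window at chr1:136953581-136953880 held the only Tcf match, as ACAAAG on the printed strand (CTTTGT on the other), 175 bases before the start. CTTTGT was found in 18.7% of all windows and CTTTGA in 16.0%. The half-site, found in 4.72% of all windows, and its longer form, in 0.423%, were in none of the 6. These are matches of letters in short windows.

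The libraries held 8309171 to 14245900 reads recovered from the deposited values, and the fewest member reads were 56, for Gbx2 in LV8 at P7. Pou5f1 ran from 8.57 to 9.54 log2 CPM over the 24 libraries and Sox2 from 7.70 to 9.11, and all 16 fibroblast and feeder markers were in the table, with at most 1 of them at 0 in a library. Some libraries stood apart. Female LV21 at P7 had a median of X-linked genes 0.29 below its autosomal median, whereas LV20 and LV22 at P7 were 0.33 and 0.44 above it. LV21 at P7 also had the highest sums of neural, mesendoderm and trophoblast markers among the iPSC libraries at P7. The sum of 3 neural markers was 255 CPM, against 61.6 and 63.6 in LV20 and LV22 and 100.1 to 156 in male lines. That of 8 mesendoderm markers was 167, against 28.3 and 25.9, and 32.2 to 74.2. That of 9 trophoblast markers was 393, against 276 and 273, and 310 to 348. The primitive endoderm sum did not stand out, at 530 against 547 and 509, and 534 to 650. The X-linked median of LV22 at P13 was 0.32 below the autosomal one. It was 0.66 and 0.76 below in LV20 and LV21 at P13 and 0.58 to 0.75 below in the male iPSC libraries. Among the Dusp9+/- libraries, the chromosome 12 median minus the autosomal median was 0.73 in number 1 at 0 h and 0.62 in number 2 at 24 h, against 0.12 to 0.33 in the other 22 libraries. The median difference of number 1 minus number 2 over 463 chromosome 12 genes was 0.46 at 0 h and -0.45 at 24 h, while each of the 18 other autosomes lay between -0.05 and 0.04. Dusp9 itself was 5.96 at 0 h and 7.71 at 24 h in number 1 and 7.43 and 6.58 in number 2, against 6.93 and 7.84 in F121. The library labelled Dusp9+/- number 2 at 0 h thus held a higher Dusp9 level than F121. At 24 h both Dusp9+/- libraries lay below F121. The label gives a genotype, not an RNA level. The summed CPM of the feeder markers was 1060 and 1111 in F121 and V6.5 at 0 h, although the labels give no feeder cells there. Deviations from the group means correlated at -0.43 between Dusp9+/- libraries of the same number, over 11420 genes. With 2 libraries in a group these deviations mirror each other. The 0.43 between different numbers is therefore the same value with its sign turned. The main withdrawal comparisons therefore do not pair libraries by number, and the 2 Dusp9+/- lines are used as a group. The main iPSC passage comparisons do not pair the lines either, although the labels name the same line at P7 and P13. They treat the libraries of a line as independent. Pairing each iPSC line to itself is given as an alternative.

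Over the 24 libraries Tbx3 had the widest range, from 3.84 in V6.5 at 24 h to 8.66 in CM1, a span of 4.82. Tfcp2l1 ran from 6.57 in F121 at 24 h to 10.23 in CM2, and Gbx2 from 2.35 in a Dusp9+/- line at 0 h to 5.68 in V6.5 at 24 h. Esrrb ran from 7.64 in V6.5 at 24 h to 9.86 in CM1, and Nr5a2 from 4.91 in a Dusp9+/- line at 0 h to 6.91 in V6.5 at 0 h. Levels of different genes are not compared here, since the values are not scaled to transcript length.

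Tbx3 was highest in the XX CM lines, at 8.65 ± 0.0052 (SD, n = 2), followed by F121 at 0 h at 8.28. V6.5 at 0 h (7.72), female iPSCs at P7 (7.46 ± 0.56, n = 3), Dusp9+/- lines at 0 h (7.23 ± 0.17, n = 2) and XY CM lines (7.22 ± 0.025, n = 2) followed, and each of these overlapped its neighbour in the order. Next came female iPSCs at P13 (6.47 ± 0.57, n = 3), male iPSCs at P13 (6.25 ± 0.16, n = 3) and male iPSCs at P7 (5.48 ± 0.55, n = 3), again with overlap between neighbours. The 24 h libraries were lowest, at 4.89 ± 0.049 (n = 2) in the Dusp9+/- lines, 4.52 in F121 and 3.84 in V6.5, and none of these overlapped its neighbour.

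Tfcp2l1 and Esrrb were both highest in the XX CM lines, at 10.14 ± 0.12 and 9.86 ± 0.0073 (n = 2), apart from the next group, V6.5 at 0 h, at 9.63 and 9.68. F121 at 0 h came next for both, at 9.45 and 9.61. For both genes the groups from the XY CM lines down to the male iPSCs at P13 formed a chain in which every neighbour overlapped, ending at 8.59 ± 0.32 for Tfcp2l1 and 9.02 ± 0.12 for Esrrb. The 24 h libraries lay below this chain. Tfcp2l1 was lowest in F121 at 24 h (6.57) and Esrrb in V6.5 at 24 h (7.64).

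Nr5a2 had another order. V6.5 at 0 h was highest, at 6.91, and the 7 groups down to the XY CM lines (5.93 ± 0.15, n = 2) spanned iPSCs of both passages, F121 at 0 h and the XX CM lines. V6.5 at 0 h, the male iPSCs at P7 and the XY CM lines lay apart from their lower neighbours, and the others overlapped theirs. The 4 lowest groups were V6.5 at 24 h (5.46), the Dusp9+/- lines at 24 h (4.96 ± 0.021, n = 2) and at 0 h (4.96 ± 0.07, n = 2), and F121 at 24 h (4.95), of which the last 3 overlapped in sequence. The Dusp9+/- lines thus sat at 0 h where F121 sat at 24 h.

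Gbx2 was ordered differently again, with some 24 h libraries near the top. V6.5 at 24 h (5.68) and at 0 h (4.71) were highest, followed by female (4.44 ± 0.51) and male (4.27 ± 0.6) iPSCs at P13 and F121 at 24 h (4.27). The Dusp9+/- lines at 24 h, at 3.73 ± 0.65, and the XY CM lines, at 3.41 ± 0.11, came next. F121 at 0 h (3.31), iPSCs at P7 (3.14 ± 0.34 female and 3.13 ± 0.32 male), the XX CM lines (2.85 ± 0.22) and the Dusp9+/- lines at 0 h (2.71 ± 0.51) were lowest, and these 5 groups overlapped neighbour by neighbour.

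**Figure D1:**
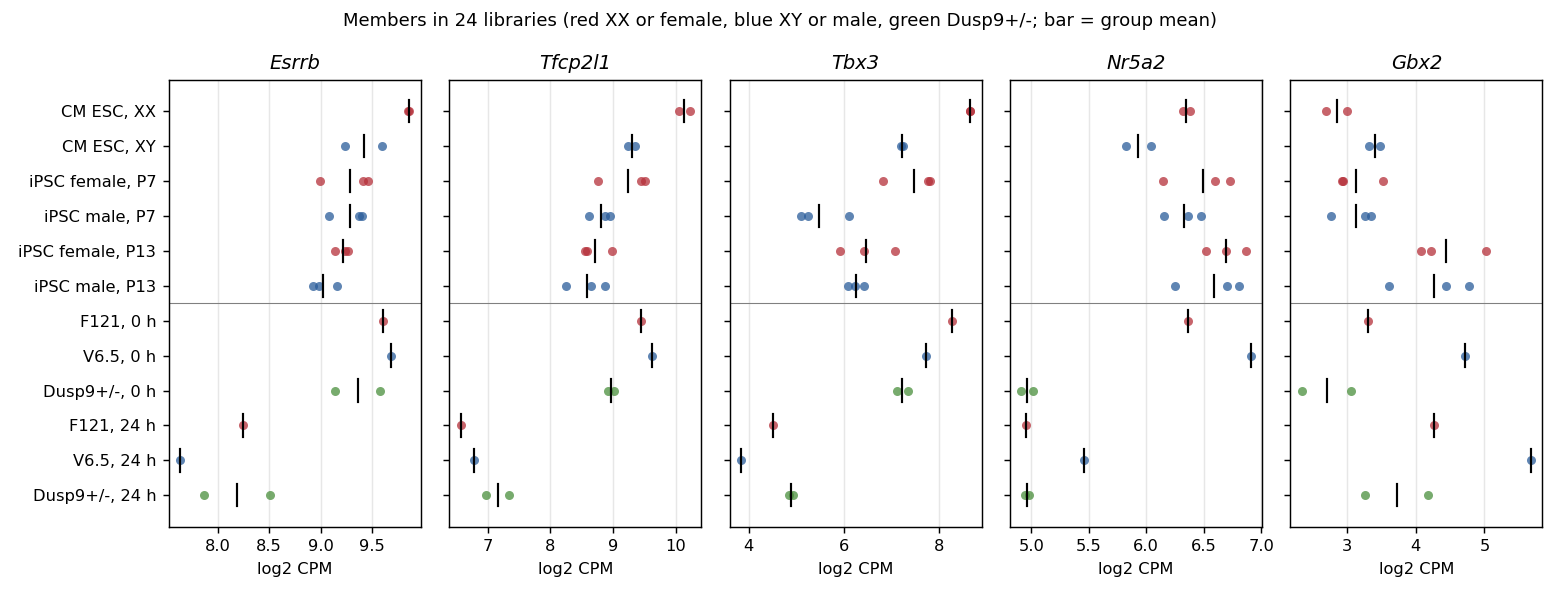
Log2 CPM of the 5 members (x axis, own scale per panel) in the 12 groups (y axis), with 1 point per library and a bar at the group mean. Tbx3 spans 3.84 to 8.66, with the 24 h libraries lowest, and Nr5a2 of the Dusp9+/- lines lies near 4.96 at both times.

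At P7, Tbx3 was the member that separated female from male iPSC lines. The female lines held 7.77 (LV20), 6.82 (LV21) and 7.81 (LV22), and the male lines 5.24 (LV4), 5.10 (LV8) and 6.11 (LV16). All 3 female lines lay above all 3 male lines, with LV21 the lowest female and LV16 the highest male line. Tbx3 was 3.95-fold higher in the female lines (1.98 ± 0.31 on the log2 scale, SE, adjusted p = 0.00571, limma over the 12 iPSC libraries, n = 3 and 3). This was 1 call among the 5 members, against 4.78% of 13978 genes tested. When the 2 female libraries that stood apart (LV21 P7, LV22 P13) were left out, the difference was 2.31 (adjusted p = 8.77e-05). Since LV21 was the lowest female line, leaving it out had to raise this difference.

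Tfcp2l1 was 9.44, 8.76 and 9.51 in LV20, LV21 and LV22 and 8.62, 8.88 and 8.95 in LV4, LV8 and LV16. LV21 lay within the male range and the other 2 female lines above it. The difference of 0.42 ± 0.19 did not pass the test (adjusted p = 0.225), and without those 2 libraries it was 0.66 (adjusted p = 0.00938). Esrrb differed by 0.0041 (95% interval -0.25 to 0.26), Nr5a2 by 0.16 (-0.19 to 0.52) and Gbx2 by 0.0074 (-0.67 to 0.69), all with overlapping lines. LV21, the female line with the lowest Tbx3, Tfcp2l1 and Esrrb at P7, was also the one with the low X-linked median and the high neural and mesendoderm markers. Without LV21 at P7 alone the differences were 2.31 for Tbx3 (adjusted p = 0.000274), 0.66 for Tfcp2l1 (0.0158) and 0.15 for Esrrb (0.375). The part of RNA from other cells in these levels was not tested.

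Among 16 other naive factors, 5 were higher in the female lines at P7 and none lower (over all genes 3.05% were higher and 1.72% lower), with a median difference of 0.41 beside 0.0036 over all genes. They included Klf5 (0.74, adjusted p = 0.0168), Zfp57 (0.55, 0.0268), which protects imprints, Tcl1 (1.35, 0.0396) and Prdm14 (1.24, 0.044), a repressor of ERK and methylation genes. Of 14 genes of LIF and Stat3 input 1 was lower, Stat5a (-0.996, adjusted p = 0.0397), and the median was -0.09. Of 17 genes of Wnt and Tcf input, 1 was higher and 3 were lower. The higher one was the X-linked Porcn (1.54, adjusted p = 0.00907), which attaches lipid to Wnt ligands, and the lower ones were the Wnt receptor partner Lgr4, the effector Tcf7 and Rnf43 (-1.80, 0.0459), a Wnt target that removes Wnt receptors. None of 11 formative genes, which rise as cells leave the naive state, passed the test in either direction.

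At P13 no member passed the test between the lines of female and male origin, where 0.0286% of genes were called (4 genes, and 4 by limma-voom on recovered reads). Tbx3 was 6.43, 5.92 and 7.07 in LV20, LV21 and LV22 and 6.41, 6.24 and 6.10 in LV4, LV8 and LV16. LV21 lay below and LV22 above all male lines. The difference was 0.22 (95% interval -0.44 to 0.89), and -0.07 without the 2 female libraries that stood apart. Intervals were -0.06 to 0.45 for Esrrb, -0.29 to 0.53 for Tfcp2l1, -0.25 to 0.46 for Nr5a2 and -0.51 to 0.85 for Gbx2.

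The P13 value of Tbx3 minus its P7 value was -1.34, -0.89 and -0.74 in the female lines LV20, LV21 and LV22. In the male lines LV4, LV8 and LV16 it was 1.18, 1.13 and -0.01, so that LV4 and LV8 went against the female lines and LV16 was nearly level. The mean change was -0.99 ± 0.31 in the female lines (adjusted p = 0.0592) and 0.77 ± 0.31 in the male lines (adjusted p = 0.112), neither of which passed the test. With each line paired to itself (replicate block), both passed, at adjusted p = 0.0161 and 0.0315. The female change differed from the male change by -1.76 ± 0.44 (adjusted p = 0.434, limma interaction term), in a test that called 0% of genes (0 by limma and 0 by limma-voom, with 1242 at an unadjusted p under 0.05). Without the 2 female libraries that stood apart, Tbx3 changed by -1.61 in female lines (adjusted p = 0.00213) and by 0.77 in male lines (adjusted p = 0.0252). The difference between these changes was then -2.38 (adjusted p = 0.00474), and the count of called genes was 361. Leaving out LV21 P7 alone gave -2.08 (adjusted p = 0.0306). With the replicate block it was -1.76 at an adjusted p of 0.0705, and the count was 11. The 2 libraries left out above were chosen from these same data. LV21 had the lowest Tbx3 of the female lines at P7 and LV22 the highest at P13. Leaving them out therefore had to enlarge the female fall.

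The summed CPM of the feeder markers was higher at P13 in each line. It was 4.48-fold higher in LV4, 3.12-fold in LV8 and 1.76-fold in LV16, and in female lines 2.50-fold in LV20, 1.16-fold in LV21 and 3.67-fold in LV22. The 2 male lines with the larger ratios were those with a positive Tbx3 change, while all 3 female lines had a negative one. Of 15 feeder markers tested 8 rose in female and 10 in male lines, and none fell. The summed level of 9 trophoblast markers was 273 to 393 CPM at P7 and 163 to 228 at P13 in female lines, and 310 to 348 and 146 to 245 in male lines. The part of RNA from other cells in these changes was not tested. In bulk RNA, fewer cells of a type and less RNA per cell cannot be told apart.

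Gbx2 rose with passage in lines of both sexes. In the female lines it was 2.93, 3.53 and 2.95 at P7 and 4.08, 5.03 and 4.22 at P13 (LV20, LV21 and LV22), and in the male lines 3.35, 2.77 and 3.26 at P7 and 4.77, 4.44 and 3.61 at P13 (LV4, LV8 and LV16). All P13 libraries lay above all P7 libraries of the same sex, and LV16, with a change of 0.35, moved least. The rise was 2.47-fold in the female lines (1.31 ± 0.32, adjusted p = 0.0245) and 2.21-fold in the male lines (1.15 ± 0.32, adjusted p = 0.031), and it was the only call among the 5 members in each, against 9% and 13% of genes. Among female lines LV21, with the smallest ratio of feeder markers, had the largest Gbx2 change (1.497, against 1.15 in LV20 and 1.27 in LV22). Among male lines LV16, with the smallest ratio, had the smallest change (0.35, against 1.42 in LV4 and 1.67 in LV8). The female call was lost without LV20 at P7 (adjusted p = 0.0998), LV22 at P7 (0.0808) or LV21 at P13 (0.073), and the male call without LV4 at P13 (0.15), LV8 at P13 (0.104), LV16 at P7 (0.0644) or LV8 at P7 (0.14). The change in female lines minus that in male lines was 0.16 (95% interval -0.80 to 1.13) and did not pass.

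The Tfcp2l1 difference between P13 and P7 was -0.53 ± 0.19 in the female lines (adjusted p = 0.098). It was -0.90 without the 2 female libraries that stood apart (adjusted p = 0.00344), again the lowest at P7 and the highest at P13. In the male lines it was -0.23 ± 0.19 (adjusted p = 0.463), with LV4 alone positive at 0.25. For Esrrb it was -0.07 (95% interval -0.33 to 0.18) in female and -0.26 (-0.52 to -0.01) in male lines (adjusted p = 0.157), and for Nr5a2 it was 0.20 (-0.16 to 0.56) and 0.26 (-0.10 to 0.61).

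**Figure D2:**
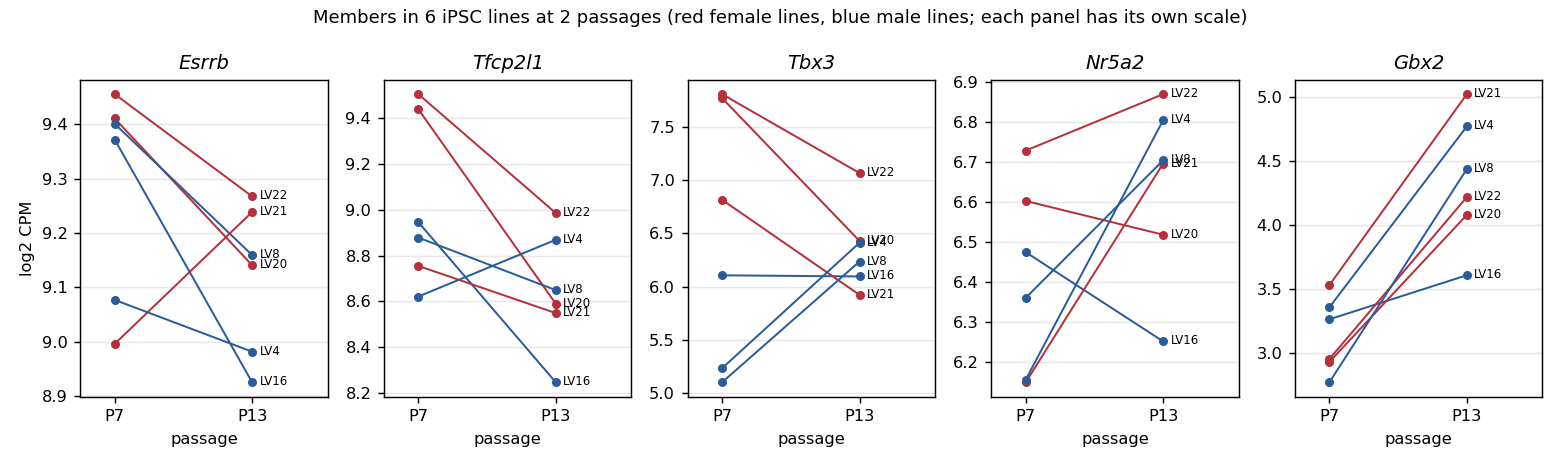
Log2 CPM (y axis, own scale per panel) of the 5 members at P7 and P13 (x axis) in 6 iPSC lines, with 1 line per iPSC line. Tbx3 of the female lines starts above that of the male lines at P7 and overlaps it at P13, and Gbx2 is higher at P13 in all 6 lines.

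The LIF and Stat3 genes included Socs3, the Stat3 target that limits LIF signalling. It fell with passage by 1.11 in female lines (adjusted p = 0.00575) and by 1.31 in male lines (adjusted p = 0.00135). Of 14 genes on this list, 1 rose and 3 fell in female lines, where 4.32% of all genes rose and 4.68% fell. In male lines none rose and 4 fell, where 7.23% of all genes rose and 5.82% fell. The Pim kinase genes Pim1 and Pim3 fell in both. Stat3 rose by 0.35 in female lines (adjusted p = 0.0373), and Jak2 fell by 0.63 in male lines (adjusted p = 0.0364). Of 16 other naive factors, Sall4 rose (0.40, adjusted p = 0.0247) and Klf4 (-0.77, 0.00575) and Nanog (-0.94, 0.0252) fell in female lines, with a median of 0.0051. In male lines Zfp42 rose (0.56, adjusted p = 0.0193) and Klf4 fell (-0.48, 0.0223), with a median of 0.23, beside -0.0021 and -0.0029 over all genes. Of 17 Wnt and Tcf genes 1 rose in female lines, Lgr4 (0.45, adjusted p = 0.0118), and 2 rose and 3 fell in male lines, among them Porcn (1.37, adjusted p = 0.00676) and Rnf43 (-2.46, adjusted p = 0.00662).

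Between wild-type XX and XY ESC lines without LIF withdrawal, Tbx3 was again the called member. It was 8.66 and 8.65 in CM1 and CM2 and 7.20 and 7.24 in CM3 and CM7, and 8.28 in F121 against 7.72 in V6.5. All 3 XX lines lay above all 3 XY lines. Tbx3 was 2.21-fold higher in XX lines (1.14 ± 0.16, adjusted p = 0.00516, limma with the experiment as a covariate, n = 3 and 3), 1 call among the 5 members against 7.19% of 14193 genes tested. In the CM lines alone the difference was 1.43 (adjusted p = 5.29e-06), while F121 against V6.5, with 1 line each, has no replicate check. In the fit over both experiments, leaving out any CM line gives this single pair, with its smaller difference, more weight. The call was lost without CM2 (1.06, adjusted p = 0.0505).

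In the CM lines alone, Tfcp2l1, Esrrb and Nr5a2 also passed. Tfcp2l1 was 10.05 and 10.23 in CM1 and CM2 and 9.36 and 9.23 in CM3 and CM7, a difference of 0.84 (adjusted p = 0.000135). Esrrb was 9.86 and 9.85 against 9.60 and 9.24 (0.44, adjusted p = 0.0192), and Nr5a2 was 6.32 and 6.38 against 6.04 and 5.82 (0.42, adjusted p = 0.0418). For these 3 genes V6.5 lay above F121 at 0 h, so over both experiments the differences were 0.50, 0.27 and 0.10 and did not pass (adjusted p = 0.14, 0.242 and 0.8). Gbx2 was lower in all 3 XX lines (2.70, 3.01 and 3.31 in CM1, CM2 and F121) than in the XY lines (3.48, 3.33 and 4.71 in CM3, CM7 and V6.5). That difference, -0.84 ± 0.24, did not pass (adjusted p = 0.0785). F121 and CM7, from different experiments, nearly met, with 130 and 127 reads.

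Of the CM lines, CM7 held more RNA of markers of other cell types. Its sums were 334 CPM for the mesendoderm, 661 for the trophoblast and 141 for the neural markers, against 47.6 to 64.6, 197 to 277 and 56.2 to 68.7 in CM1, CM2 and CM3. CM7 also had the lowest Esrrb, Tfcp2l1 and Nr5a2 of the CM lines, while its Tbx3 was close to that of CM3. Over both experiments the mesendoderm markers had a median XX minus XY difference of -1.03, with none of 8 called by limma, and none of 6 trophoblast or 3 neural markers tested was called (1 of each list had an unadjusted p under 0.05). Without CM7 the difference over both experiments was 1.07 for Tbx3 (adjusted p = 0.0196), 0.37 for Tfcp2l1 (0.311), 0.12 for Esrrb (0.49) and -0.06 for Nr5a2 (0.895). Leaving out CM7 also gives the single F121 and V6.5 pair more weight in this fit. V6.5 lay above F121 for Tfcp2l1, Esrrb and Nr5a2, so these shifts do not show the effect of CM7 alone. CM1 and CM2 still lay above CM3 for each of these genes and for Tbx3 (Nr5a2 6.32 and 6.38 against 6.04). The part of RNA from other cells in the differences between CM lines was not tested.

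Of the 16 other naive factors 8 were higher in XX ESC lines and none lower (over all genes 4.87% were higher and 2.32% lower), with Nanog at 0.999 (adjusted p = 0.000695), Prdm14 at 1.34 (0.00196), Fbxo15 at 0.89 (0.00231) and Dppa5a at 0.60 (0.00567). Of 11 formative genes 3 were lower, Sox11 (-1.74, adjusted p = 0.00111) and the DNA methyltransferase genes Dnmt3b (-1.19, 0.00771) and Dnmt3a (-0.73, 0.0156). Axin2, a feedback inhibitor and common readout of Wnt signalling, was lower in XX lines (-1.31, adjusted p = 0.00683), as was Tcf7 (-0.42, 0.047), and no other of 17 Wnt and Tcf genes passed. Of 14 LIF and Stat3 genes, Pim1 (0.37, adjusted p = 0.0296) and Pim3 (0.39, 0.0318) were higher and the adaptor gene Gab1 lower (-0.66, 0.00718).

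Against the CM lines, iPSCs at P7 held less Tbx3, Tfcp2l1 and Esrrb. Tbx3 was 2.76-fold lower (-1.46 ± 0.22, adjusted p = 0.000157), Tfcp2l1 1.62-fold lower (-0.69 ± 0.14, adjusted p = 0.00144) and Esrrb 1.28-fold lower (-0.35 ± 0.12, adjusted p = 0.0299, limma with sex as a covariate, n = 6 and 4). These were 3 calls among 5 members, where 37.2% of 14106 genes were called. The Nr5a2 difference was 0.27 (adjusted p = 0.0812), and Gbx2 differed by 0.0027 (95% interval -0.45 to 0.45). In male lines alone Esrrb was -0.13 (adjusted p = 0.447) and Nr5a2 0.40 (adjusted p = 0.0386). The Esrrb call was also lost without CM1, CM2, CM3 or LV4, with adjusted p up to 0.104. Socs3 was higher in iPSCs (1.75, adjusted p = 5.61e-07), as was Stat3 (0.57, 0.000166), while 4 of 14 LIF and Stat3 genes were higher and 2 lower. The feeder marker sum was 400 to 612 CPM in the iPSCs and 751 to 903 in the CM lines, and its part in these differences was not tested.

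**Figure D3:**
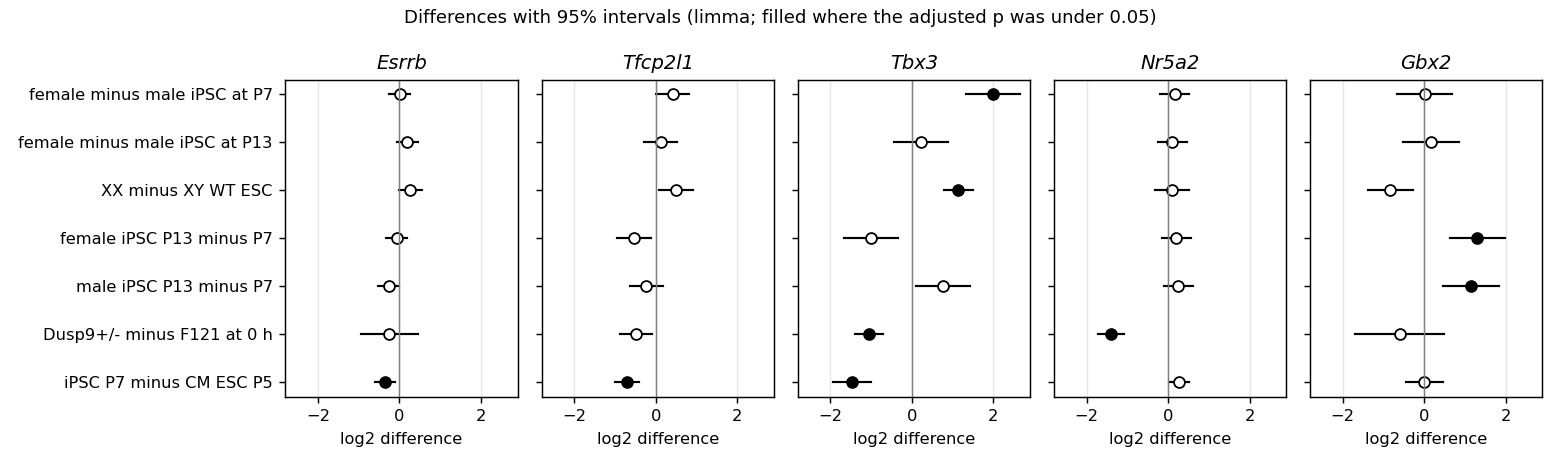
Log2 differences (x axis) with 95% intervals from limma for the 5 members in 7 comparisons (y axis), filled where the adjusted p was under 0.05. Tbx3 is filled in 4 of the 7, at 1.98, 1.14, -1.05 and -1.46, and Gbx2 only in the passage comparisons.

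After 24 h without LIF, Tbx3, Tfcp2l1 and Esrrb fell and Gbx2 rose. Tbx3 went from 8.28 to 4.52 in F121 and from 7.72 to 3.84 in V6.5, and in the Dusp9+/- lines from 7.11 and 7.35 at 0 h to 4.85 and 4.92 at 24 h. No 24 h library reached any 0 h library. The fall was 8.47-fold (-3.08 ± 0.28, adjusted p = 0.000631, limma with genotype as a covariate, n = 4 and 4). These 4 calls among 5 members stand beside 32.7% of 14335 genes called.

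Tfcp2l1 went from 9.45 to 6.57 in F121 and from 9.63 to 6.78 in V6.5, and from 8.93 and 9.01 to 6.97 and 7.35 in the Dusp9+/- lines. The groups did not overlap, and the fall was 5.05-fold (-2.34 ± 0.21, adjusted p = 0.000623). Esrrb went from 9.61 to 8.24 in F121, from 9.68 to 7.64 in V6.5 and from 9.58 and 9.14 to 7.87 and 8.51 in the Dusp9+/- lines. These groups did not overlap either, and the fall was 2.71-fold (-1.44 ± 0.20, adjusted p = 0.00205).

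Gbx2 went from 3.31 to 4.27 in F121, from 4.71 to 5.68 in V6.5 and from 2.35 and 3.07 to 4.19 and 3.27 in the Dusp9+/- lines. V6.5 was high at both times and the groups overlapped, and the rise within genotypes was 1.99-fold (0.99 ± 0.23, adjusted p = 0.015). F121 and V6.5 gained nearly the same amount, 0.959 and 0.961. Nr5a2 went from 6.36 to 4.95 in F121 and from 6.91 to 5.46 in V6.5, but the Dusp9+/- lines held 5.01 and 4.91 at 0 h and 4.95 and 4.98 at 24 h. The mean change of -0.71 ± 0.27 did not pass (adjusted p = 0.0735), and in the wild-type lines alone it was -1.43 (adjusted p = 0.000173). That last fit holds 1 F121 and 1 V6.5 line. The spread of Nr5a2 in it is only the difference between their changes, -1.41 and -1.45. The 5 factors thus did not move as 1 group.

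**Figure D4:**
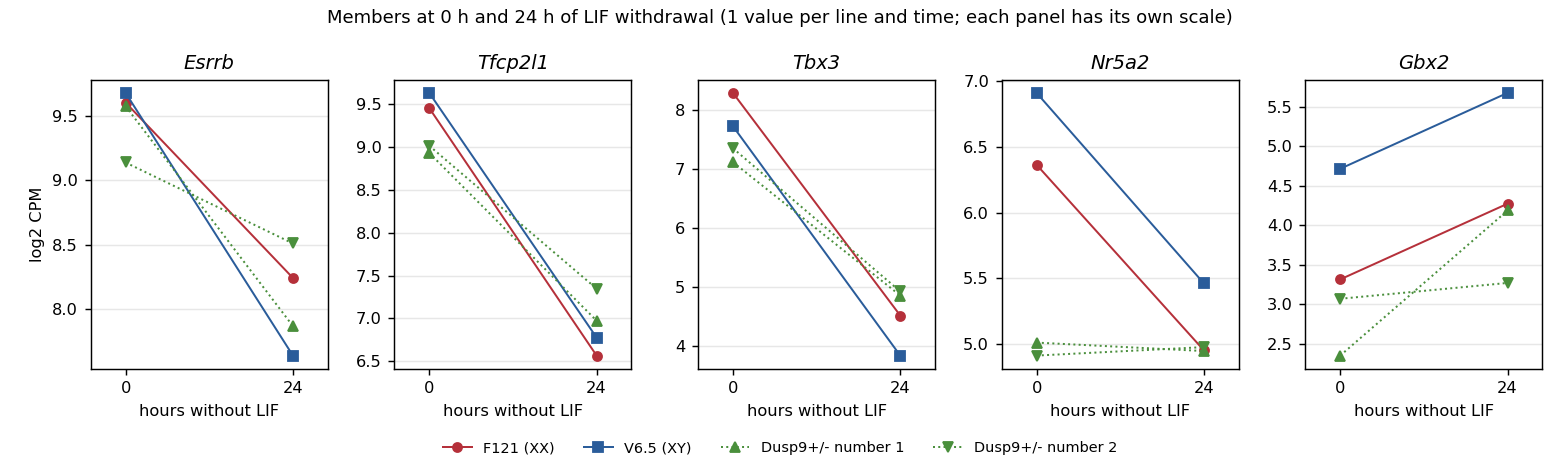
Log2 CPM (y axis, own scale per panel) of the 5 members at 0 h and 24 h without LIF (x axis), with 1 value per line and time and the Dusp9+/- libraries joined by their labelled number (dotted). Tbx3 and Tfcp2l1 are lower at 24 h in all 4 lines, and Nr5a2 is near 5 at both times in the Dusp9+/- lines.

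The feeder marker sum was 1060 CPM at 0 h and 354 at 24 h in F121, and 1111 and 303 in V6.5. In the Dusp9+/- libraries it was 146 at 0 h and 281 at 24 h in number 1, and 308 and 169 in number 2. The Tbx3 changes there were -2.26 and -2.42 by number and -2.19 and -2.49 across the numbers. Over the 4 lines 7 of 14 feeder markers tested fell and none rose, and 3 of 7 primitive endoderm markers fell. The part of RNA from other cells in the withdrawal results was not tested.

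Of 14 LIF and Stat3 genes 2 rose and 7 fell (over all genes 16.8% rose and 15.9% fell), with Socs3 at -2.68 (adjusted p = 0.000218), Stat3 at -1.34 (0.000361), Jak2 at -0.75 (0.00259) and Pim3 at -0.68 (0.00147). Of 16 Wnt and Tcf genes tested, the effector Lef1 rose (1.91, adjusted p = 0.00139), and Gsk3b (-0.35, 0.00605) and Rnf43 (-1.03, 0.0294) fell. Of 16 other naive factors 1 rose, the coactivator gene Ncoa3 (0.30, adjusted p = 0.0382), and 11 fell, among them Klf4 (-2.69, adjusted p = 0.000638), Nanog (-1.64, 0.000681), Tcl1 (-1.58, 0.000371) and Klf2 (-1.32, 0.00152). Of 11 formative genes 9 rose and none fell, with Pou3f1 at 2.35 (adjusted p = 0.00463), Dnmt3b at 1.57 (0.000423), Tcf15 at 1.12 (0.00314) and Dnmt3l at 0.94 (0.00169).

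For no member did the V6.5 response pass the test against that of F121. The differences were -0.11 for Tbx3 (95% interval -0.67 to 0.44), 0.03 for Tfcp2l1 (-0.61 to 0.68), -0.04 for Nr5a2 (-0.54 to 0.46), 0.0021 for Gbx2 (-1.78 to 1.79) and -0.68 for Esrrb (-1.83 to 0.48). Relative to the chromosome 12 median of each library the Esrrb difference was -0.61 ± 0.18 (adjusted p = 0.947). This test called 0% of genes (0 by limma and 0 by limma-voom, with 612 at an unadjusted p under 0.05), and it assumes that the single F121 and V6.5 lines vary like the Dusp9+/- lines.

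Before withdrawal, Nr5a2 and Tbx3 were lower in the Dusp9+/- lines than in F121. Nr5a2 was 5.01 and 4.91 against 6.36, a 2.64-fold difference (-1.40 ± 0.13, adjusted p = 0.0144, n = 2 and 1). Tbx3 was 7.11 and 7.35 against 8.28, a 2.08-fold difference (-1.05 ± 0.14, adjusted p = 0.0212). The Tbx3 call was lost with no filter on low values (adjusted p = 0.0503), with no trend (0.0591) and with the spread of all 24 libraries (SE 0.41, adjusted p = 0.147). These 2 calls among 5 members stand beside 8.91% of genes. The values lay below V6.5 (6.91 and 7.72) as well, so within this experiment the lines did not sit between F121 and V6.5. Tfcp2l1 was 8.93 and 9.01 against 9.45 (-0.48, adjusted p = 0.11), and Gbx2 was 2.35 and 3.07 against 3.31 (-0.61, adjusted p = 0.401).

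At 0 h the Dusp9+/- lines differed from F121 in other ways too. The feeder marker sum was 146 to 308 CPM against 1060, and the summed level of 9 trophoblast markers was 288 to 483 CPM against 98.0. Of the feeder markers 7 of 14 tested were lower, and of the trophoblast markers 3 of 7 were higher. Their part in these differences was not tested.

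Of 16 other naive factors 5 were lower and none higher (over all genes 4.1% were lower and 4.81% higher), among them Fbxo15 (-1.08, adjusted p = 0.015), Klf5 (-0.82, 0.0236) and Nanog (-0.81, 0.0245). Of 11 formative genes 4 were higher and 1 lower, with Fgf5 at 2.32 (adjusted p = 0.0135), Pou3f1 at 1.75 (0.0293), Sox11 at 1.52 (0.0173), Dnmt3b at 0.72 (0.0199) and, in the other direction, Zic2 at -0.68 (0.0322). Of the LIF and Stat3 genes Stat3 was lower (-0.57, adjusted p = 0.0393) and Socs3 higher (0.71, 0.0413), and of 16 Wnt and Tcf genes Rnf43 (2.87, adjusted p = 0.0214) and the Wnt co-receptor gene Lrp5 (0.87, 0.025) were higher.

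Esrrb in these lines was higher in the libraries whose chromosome 12 stood higher. At 0 h it was 9.58 in number 1, whose chromosome 12 median stood 0.73 above the autosomes, and 9.14 in number 2, where that value was 0.25. At 24 h it was 7.87 in number 1 (0.20) and 8.51 in number 2 (0.62). The Gbx2 changes in these lines also depended on the joining, at 1.84 and 0.20 by number and 0.92 and 1.12 across the numbers. Joined by number, the Esrrb changes to 24 h were -1.71 and -0.63, and joined across the numbers they were -1.07 and -1.27.

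Taken relative to the chromosome 12 median of its own library, Esrrb stood 4.23 and 4.22 above it in the Dusp9+/- lines at 0 h, 4.76 above it in F121 and 4.88 in V6.5. On this scale both Dusp9+/- lines lay below both wild-type lines, and the difference from F121 was -0.54. F121 is 1 library there, and the fit takes its spread from the Dusp9+/- lines alone. Among 9 settings other than the main one, this difference passed the test on this scale only. On the deposited scale it was -0.25 ± 0.29 (adjusted p = 0.598), with both lines still below F121. At 24 h the values on the chromosome scale were 3.03 and 3.24 in the Dusp9+/- lines, between V6.5 (2.86) and F121 (3.35).

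**Figure D5:**
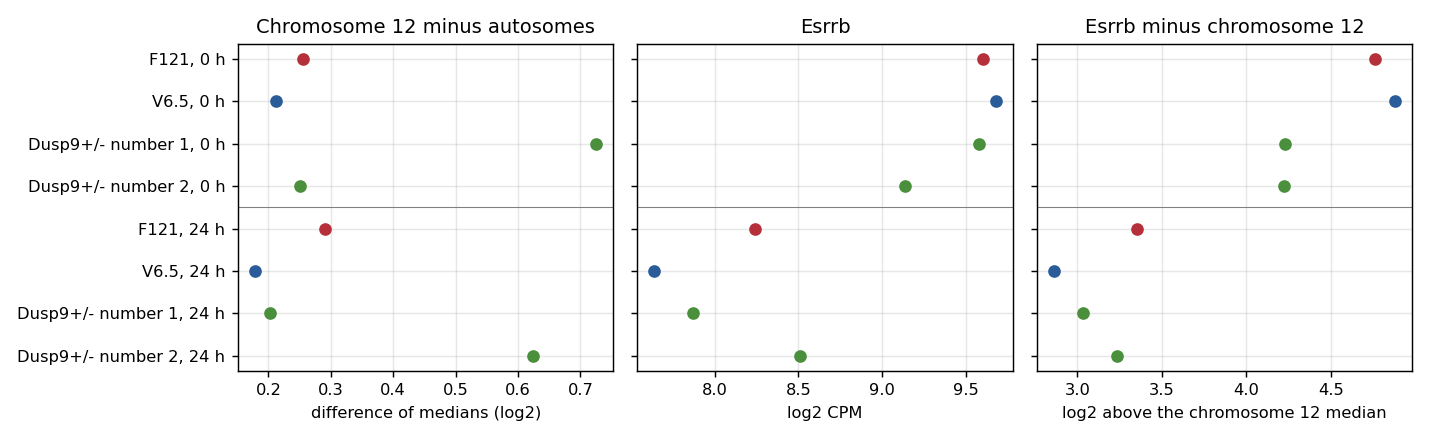
The 8 withdrawal libraries (y axis) by the chromosome 12 median minus the autosomal median (left), Esrrb in log2 CPM (middle) and Esrrb above the chromosome 12 median of its library (right). The 2 Dusp9+/- libraries with 0.73 and 0.62 on the left have the higher Esrrb of their time point in the middle, and at 0 h the Dusp9+/- lines coincide on the right at 4.23 and 4.22.

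At 24 h no member passed the test between the Dusp9+/- lines and F121, where 2.55% of genes were called (366 by limma and 13 by limma-voom). Tfcp2l1 was 6.97 and 7.35 against 6.57 (0.59 ± 0.16, adjusted p = 0.098), and Tbx3 was 4.85 and 4.92 against 4.52 (0.37 ± 0.14, adjusted p = 0.173), both above F121 in both lines. Nr5a2 was 4.95 and 4.98 against 4.95 (95% interval of the difference -0.30 to 0.32). Intervals were -0.76 to 0.65 for Esrrb and -1.64 to 0.55 for Gbx2. Of the gene lists, Axin2 was higher (1.24, adjusted p = 0.0428) and the formative genes Zic2 (-0.88, 0.0402) and Zic5 (-0.83, 0.046) lower, where 1.57% of all genes were higher and 0.984% lower. The trophoblast marker sum was 469 to 486 CPM against 71.4, with 5 of 7 markers higher.

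The response to withdrawal differed from that of F121 by 1.43 ± 0.20 for Tbx3 (adjusted p = 0.18), 1.41 ± 0.18 for Nr5a2 (adjusted p = 0.153) and 1.07 ± 0.23 for Tfcp2l1 (adjusted p = 0.233), none of which passed. This test called 0% of genes (0 by limma and 0 by limma-voom, with 1766 at an unadjusted p under 0.05). Leaving out 1 Dusp9+/- library at a time gave 1.31 to 1.54 for Tbx3 and 1.36 to 1.46 for Nr5a2. Each such fit keeps only 1 Dusp9+/- library at that time. A response difference is the 24 h difference from F121 minus the 0 h difference, so it is not a separate result. Those were 0.0099 and -1.40 for Nr5a2, 0.37 and -1.05 for Tbx3, and 0.59 and -0.48 for Tfcp2l1. The Esrrb response differed by 0.19 (95% interval -0.81 to 1.19) and that of Gbx2 by 0.06 (-1.49 to 1.61).

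Across the 24 libraries, which share lines and experiments, Tfcp2l1 was the gene most like Esrrb of 14241 ranked genes averaging 1 CPM or more (Pearson r = 0.946). Tfcp2l1 and Tbx3 were each among the 4 genes most like the other (r = 0.906). Nr5a2 correlated with Esrrb at 0.566 and with Tbx3 at 0.431, and Gbx2 with Esrrb at -0.558 and with Tbx3 at -0.482. In the 16 iPSC and CM libraries alone, Esrrb with Tfcp2l1 gave 0.900 and Tbx3 with Tfcp2l1 gave 0.867, while Nr5a2 gave -0.07 with Esrrb and -0.01 with Tbx3. The likeness of Nr5a2 to these genes was not seen without the withdrawal libraries.

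The next genes most like Esrrb were Nfkbia (0.905) and Klf11 (0.903), both on chromosome 12, and Lama1 (0.885). For Tfcp2l1 they were Esrrb, Serpinb1a (0.907) and mt-Rnr2 (0.906), and for Tbx3 they were Klf5 (0.935), Yes1 (0.911) and Sod2 (0.905). Nr5a2 was most like Cdc5l (0.933), Tdh (0.895), Hal (0.894) and Cxcl1 (0.894), and Gbx2 was most like Rarg (0.919), a retinoic acid receptor gene, Wdr83 (0.902), Cog8 (0.884) and G3bp2 (0.869). Of these 20 pairs, 8 stayed among the first 4 by Spearman's rho and none in the 16 iPSC and CM libraries alone. Of 9 close relatives of the members 6 were in the table and 4 were tested, and limma called none in any of the 12 comparisons.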

How the data were processed

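RNA of 24 libraries was read single-end after TRIzol extraction and a stranded mRNA kit, per the labels' protocols. Tools named by the submitters' processing notes are STAR 2.5.3a, edgeR and featureCounts, with the builds GRCm38 and mm10. Their roles are not given, and how strand was counted is not given in the sources used here. The authors deposited log2 CPM, a unit other than raw counts, for 16687 genes. Each column holds a floor of 0.183 CPM plus whole steps, so recovered reads (100.0% of values within 0.01 read of a whole number, 8309171 to 14245900 per library) served only limma-voom. The labels list a technical repeat for each of the 8 withdrawal columns, and whether the authors combined them is not stated. The 20 chromatin samples were not analysed here.

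Genes averaging 1 CPM or more in the libraries of a fit entered limma 3.58.1 (R 4.3.3) on the log2 values unchanged (eBayes with a trend, two-sided, Benjamini-Hochberg over all genes tested, called below 0.05). Fits held 12 iPSC, 6 wild-type ESC, 8 withdrawal or 10 early-passage libraries. Replicates are lines, but in the main iPSC fits each line entered at P7 and at P13 as if independent. The p-values measure the spread within groups. In fits with a covariate they also measure how far the effect differs between its levels. The F121 and V6.5 lines, single at each time, are assumed to vary like the Dusp9+/- lines. The fold changes of low genes are understated by the authors' offset. Chromosomes came from RefSeq (GRCm38.p6), where 15225 symbols matched directly and 366 by synonym. The fits were tested on simulated data. Alternatives covered pseudocounts of 1 and 5 CPM, filters, centring, voom, the trend, the spread, the replicate block and single libraries left out.

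The numbers of iPSC libraries pair the same line at P7 and P13. Deviations of same-line libraries correlated at -0.05 to 0.16 over 11420 genes. Dusp9+/- libraries correlated at -0.43 with the same number, which fixes the 0.43 with the other. The members and lists were chosen with earlier results of these data known. The text names the 5 members, up to 4 called genes of each list per comparison, and the 4 genes most like each member. A called gene that went against the rest of its list (Ncoa3, Zic2) was named after its values were seen.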

Additional observations from a re-analysis of the deposited data

How the results depend on the processing

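Of the 13 member results that passed the test, 8 kept their direction and call under every alternative run, and over all 13 the direction held in 232 alternatives and the call in 210. Of the 47 that did not pass, 33 alternatives passed and 48 changed sign, in 19 results of at most 0.22. Groups of 1 to 3 lines limit these tests, and depth limits Gbx2, which had as few as 56 reads. The cause of each shift below was not tested unless the setting itself changes the number of libraries or genes.

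With a replicate block (each line paired with itself) the called genes were 1551 and 2096 for passage in female and male lines, 11 for the difference between these, and 3607 for LIF withdrawal. With Dusp9+/- numbers crossed, chosen after seeing the data, the last was 4493, against 4688 without a block.

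At P7 the female minus male count of 668 was 440 with no filter, 120 with no trend, 1260 with the spread of all 24 libraries, 428 with that of 6, and 1818 without the 2 female libraries that stood apart. For female passage (1258) it was 502 with no trend, 2006 with 24 libraries and 436 with 6, and for male passage (1823) it was 1091 with no trend. The passage difference went from 0 to 361 without those 2 libraries. For XX minus XY ESC (1020) it was 283 with no trend, 1643 with 24 libraries, 1690 in CM lines alone and 149 with no covariate. For Dusp9+/- minus F121 at 0 h (1277) it was 200 with no filter, 393 with no trend and 731 with 24 libraries. At 24 h (366) it was 178 with a pseudocount of 5 CPM, 0 with no filter, 13 by voom and 0 with no trend, and the response difference went from 0 to 1 with 24 libraries. Likeness kept 8 of 20 pairs by Spearman's rho and 0 in iPSC and CM libraries.

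Sign changed at P7 for Esrrb (voom -0.012, chromosome median subtracted -0.041) and Gbx2 (voom -0.045, chromosome median -0.041, without the 2 libraries -0.19). Without those 2 libraries it also changed at P13 for Tfcp2l1 (-0.019) and Tbx3 (-0.072) and for Nr5a2 in female passage (-0.058). Further changes were the Nr5a2 passage difference (0.063, chromosome median), Nr5a2 of Dusp9+/- at 24 h (-0.031, centred), and the Gbx2 response of Dusp9+/- (-0.037, 5 CPM). In the V6.5 response they were Tbx3 (0.018, 5 CPM), Gbx2 (-0.013, voom) and Nr5a2 (0.060, chromosome median), and for iPSC minus CM they were Gbx2 (-0.014 centred, -0.28 in male lines).

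Leaving out 1 library at a time gave counts of 45 to 1727 at P7 (45 without LV22, 1727 without LV21), 174 to 2077 for female and 436 to 2203 for male passage, 0 to 146 for their difference, 207 to 1572 for ESC, 3073 to 4174 for withdrawal, 1787 to 2155 and 1 to 154 for Dusp9+/- at 0 h and 24 h, and 0 to 82 for its response. Members gave -0.10 to 0.15 (Esrrb) and -0.19 to 0.12 (Gbx2) at P7. At P13 they gave -0.051 to 0.26 (Tfcp2l1), -0.072 to 0.50 (Tbx3), -0.060 to 0.22 (Nr5a2) and -0.16 to 0.42 (Gbx2). Passage gave -0.22 to 0.012 (female Esrrb), -0.23 to 0.062 (Nr5a2 difference) and -0.17 to 0.41 (Gbx2 difference), and ESC gave -0.057 to 0.42 (Nr5a2). Dusp9+/- at 24 h gave -0.37 to 0.27 (Esrrb) and -0.0050 to 0.025 (Nr5a2), its response -0.13 to 0.52 (Esrrb) and -0.40 to 0.52 (Gbx2), and iPSC minus CM -0.12 to 0.11 (Gbx2).

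Calls lost outside those in the results were Gbx2 in female passage with no trend (adjusted p = 0.0619) and in male passage with no filter (0.0571), voom (0.0898) or no trend (0.0664). Tbx3 was lost in ESC with no trend (0.0742). Esrrb of iPSC minus CM was lost with no trend (0.0913). Tbx3 passed in female passage by voom (-1.05, 0.0449) and with 24 libraries (0.0224), and in male passage with the spread of 6 (0.034). Nr5a2 at withdrawal passed by voom (-0.86, adjusted p = 0.0389) and with 24 libraries (0.000629), and Gbx2 in ESC passed by voom (-0.93, 0.0497).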
